A study of Canis lupus familiaris with 55 samples.

Results

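The cell cycle and DNA replication genes followed here are 43 genes that act in the passage of a cell from G1 through DNA synthesis to mitosis, or hold it back. They were taken by gene name from the loci of a transcript assembly of canine embryonic gonads, and 39 of the 43 names were found among its 58781 loci in 55 libraries. TYMS, CCNB1, CCNB2 and CENPF have no locus under their names and are not analysed here. For 32 of the 39 the locus holds no other gene name, whereas 7 share theirs (TOP2A with IGFBP4, E2F1 with NECAB3, CCNA2 with BBS7, BUB1 with SNORA29, BUB1B with PAK6, BIRC5 with PGS1 and AFMID, KIF23 with PAQR5), so those values can hold reads of the partner. All 39 reached a mean of 1 FPKM in at least 1 group (FPKM, a fragment count scaled by transcript length and library size). Exons of 14 members are overlapped by a locus of the opposite strand, over 67.2% of exon bases for CCND1 and 52.9% for CCNE2, and the library kit keeps no strand. For CCND1 and TPX2 (28% of exon bases) the overlapping locus carries the same gene name. Only 1 of the 2 loci was followed for each, so reads of these genes can be split between loci.

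Gonads came from 2 backgrounds. XX DSD embryos at risk belong to a pedigree of American cocker spaniel and beagle descent in which XX dogs without SRY form testes or ovotestes, and every embryo of it used here, XX or XY, carried 1 or 2 copies of the insertion that marks the trait in the pedigree. There were 9 XX embryos at d35 (4 homozygous, 5 heterozygous), 8 at d37-39 (6 homozygous, 2 heterozygous) and 6 at d41-44 (6 homozygous). XY littermates, in which testes form, were 4 at d35 (3 homozygous), 5 at d37-39 (5 homozygous) and 3 at d41-44 (1 homozygous). Age-matched controls had beagle parents without the trait: 6 XX and 6 XY embryos at d37-39 (3 of d37 and 3 of d39 in each sex, 2 litters) and 3 XX and 3 XY at d44 (1 litter). The DSD embryos of the oldest groups were labelled d41 to d44, and for the 2 XX and 1 XY labelled d41 the study also lists an earlier day, so that age and pedigree differ together there. Each of these 53 libraries is the gonad pair of 1 embryo, and 2 further libraries pooled d34 control gonads of 6 XX and 7 XY embryos. Which XX embryos at risk would have become affected is not known. Libraries were pooled for sequencing as XX DSD at risk or control, and that pool cannot be told apart from pedigree among XX gonads. The pool of the XY littermates is not given. If they were pooled as controls, pool cannot be told apart from sex in the DSD pedigree.

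In a dividing cell, D-type and E-type cyclins with their kinases release E2F factors, which switch on the genes for DNA synthesis. CDC6 and CDT1 load the MCM2 to MCM7 helicase at origins, PCNA clamps the polymerases to DNA, and RRM1, RRM2 and TK1 make deoxynucleotides. Later, CCNA2, CDK1, FOXM1, PLK1 and the aurora kinases drive mitosis, BUB1 and BUB1B hold anaphase until the chromosomes are attached, and CDC20 and UBE2C with the anaphase-promoting complex end it. In the mammalian gonad, the coelomic epithelium and the supporting cells divide as the testis or ovary forms, pre-granulosa cells of the early ovary enter a cell cycle arrest with CDKN1B, and fetal Leydig cells divide little. In bulk samples, fewer cells of a type and less RNA per cell cannot be told apart.

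Libraries differed in depth and in the level of long loci against short ones, and both bear on these genes. Coverage along transcripts was not measured. The deepest library was 7.26 times the shallowest in relative depth, and DSD libraries of d41-44 were shallow (median 0.306 of the deepest in XX and 0.295 in XY, against 0.824 and 0.582 in the d44 controls). A long-minus-short measure was taken for each library as the median log2 deviation of loci with transcripts over 6000 bases minus that of loci between 1000 and 3000 bases. It ran from -0.79 to 0.18 in XX DSD libraries of d35 and from -0.33 to -0.26 in their XY littermates. It lay between 0.12 and 0.23 in XX DSD of d41-44, against -0.08 to -0.03 in XX controls of d44. In XX DSD replicate 8 of d35, the library with the lowest measure, 1 locus held 71.4% of the summed FPKM.

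As a summary for each library, the mean of log2(FPKM + 1) was taken over 35 of the 39 genes, leaving out CDKN1A, CDKN1B, CCND1 and CCND2. In XX gonads it stayed within a narrow band at every age, whereas XY gonads were at the XX level at d35 and below it from d37 on. XX embryos at risk had 4.93, 5.14 and 5.36 (lowest, median and highest) at d35, 4.88, 5.12 and 5.18 at d37-39, and 4.85, 5.09 and 5.12 at d41-44. XX controls had 4.99, 5.18 and 5.25 at d37-39 and 5.15, 5.17 and 5.28 at d44. Their XY counterparts lay lower in both pedigrees. XY controls had 4.28, 4.52 and 4.59 at d37-39 and 4.67, 4.74 and 4.80 at d44, and XY littermates of the DSD pedigree 4.36, 4.54 and 4.62 at d37-39 and 4.30, 4.43 and 4.64 at d41-44. At d35, by contrast, the 4 XY littermates spanned 5.03 to 5.67 and overlapped the XX range. The order held inside litters: in 9 of 9 litters of d37 and later with both sexes, every XX library was above every XY library, by 0.38 to 0.80 in the litter means, whereas in the 2 such litters of d35 the XX mean was lower, by 0.45 and 0.21. The score is a description without a test.

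**Figure D1:**
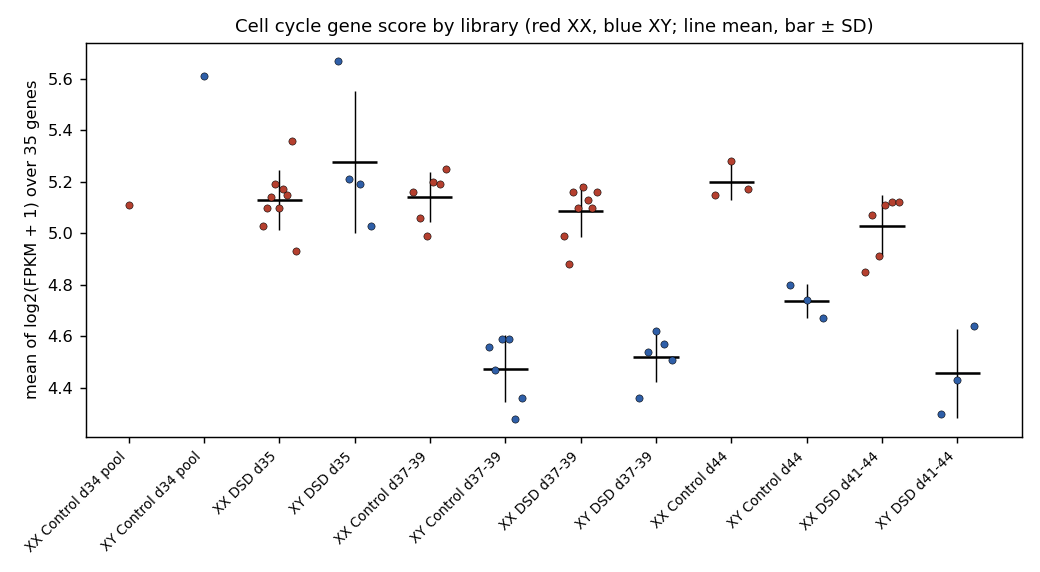
Mean of log2(FPKM + 1) over 35 cell cycle genes (y axis) in each library by group (x axis), XX in red and XY in blue, with the group mean and SD as lines. From d37 on no XY library exceeds 4.80 and no XX library is under 4.85, whereas the XX and XY libraries of d35 overlap.

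The comparison of XX with XY controls at d37-39 asks how ovary and testis differ while they form. RRM2, the regulated subunit of ribonucleotide reductase, had 39.2, 43.1 and 47.0 FPKM in the 6 XX libraries (lowest, median, highest) and 16.7, 21.0 and 22.6 in the 6 XY libraries. The groups did not overlap, and the difference was 1.05 on the log2(FPKM + 1) scale (SE 0.08, adjusted p = 7.7e-07 by limma). The gene lies on chromosome 17 from 7105086 to 7122834 (CanFam3, plus strand). BUB1, the spindle checkpoint kinase, differed most in size, with 16.1, 23.1 and 28.6 FPKM against 5.94, 8.92 and 11 (1.29, SE 0.15, adjusted p = 2.4e-05). MKI67, the standard protein marker of dividing cells, had 22.9, 29.0 and 34.5 FPKM in XX and 13.3, 15.3 and 19.5 in XY libraries, again without overlap (0.85, SE 0.12, adjusted p = 0.00017). MCM3, of the replicative helicase, had 51.3, 54.4 and 61.1 against 31.2, 34.2 and 39.8 FPKM (0.66, SE 0.07, adjusted p = 1.7e-05). BUB1B, which acts with BUB1 in the same checkpoint, was also higher in XX, with means of 26.3 ± 2.02 against 15.6 ± 1.58 FPKM (SD, n = 6 each, 0.72, adjusted p = 1.8e-05).

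Of the 39 members, 36 were called higher in XX than in XY controls at d37-39 and 0 lower (adjusted p under 0.05), against 12.7% of all loci higher and 13.8% lower. The members' median difference was 0.65, whereas that of all 21171 loci tested was -0.01. By role, all 8 genes of origin licensing and the MCM helicase were higher, by 0.34 to 0.71, as were the 4 of replication and nucleotide supply (0.34 to 1.05). The same held for all 6 mitotic cyclin, kinase and FOXM1 genes (0.59 to 0.79), all 4 checkpoint and anaphase genes (0.52 to 1.29) and all 7 of the spindle, kinetochore and cytokinesis (0.60 to 0.74). TOP2A, the topoisomerase that untangles replicated DNA, had means of 95.2 ± 5.19 and 53.8 ± 8.36 FPKM (0.83), and PCNA 174 ± 8.18 and 113 ± 13 FPKM (0.63). MCM2 (43.7 ± 4.29 and 27.5 ± 4.55 FPKM) differed by 0.66 and CDK1 (66.9 ± 5.7 and 44.4 ± 7.13 FPKM) by 0.59. The 3 members that were not called were CCND1 (0.18, SE 0.12), CDKN1B (-0.05, SE 0.09) and CDKN1A (-0.33, SE 0.13, adjusted p = 0.091). The count was 35 with litter in the fit and 30 in d39 embryos alone.

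**Figure D2:**
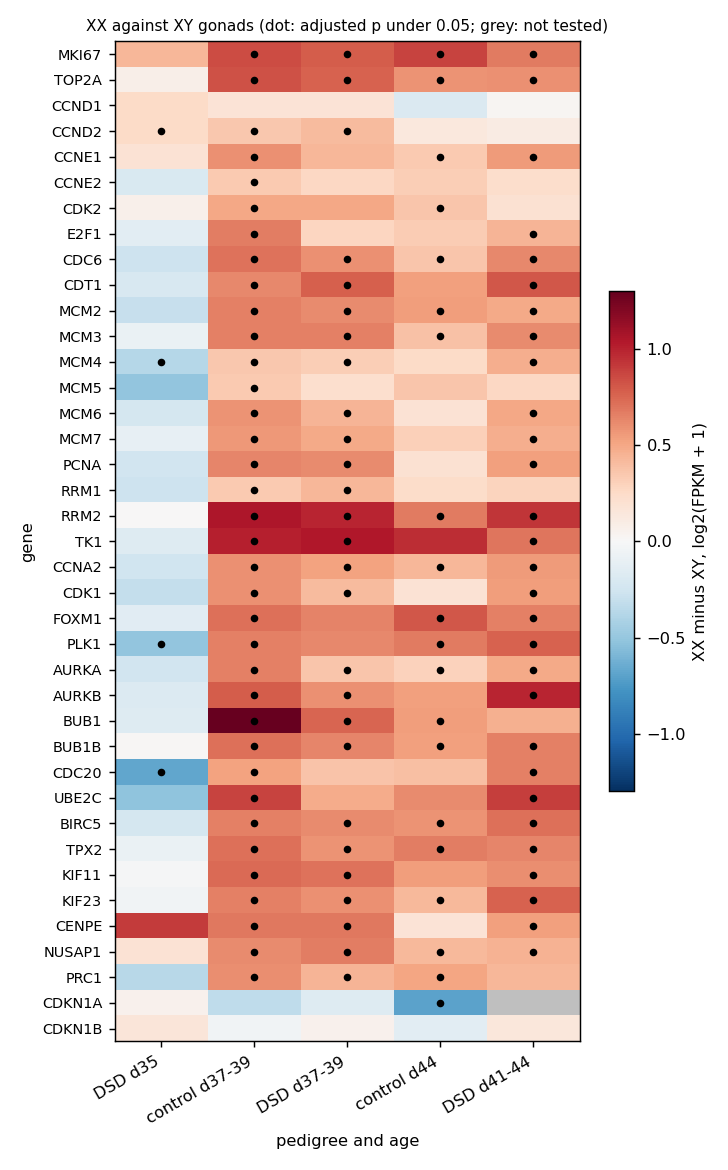
Difference between XX and XY gonads on the log2(FPKM + 1) scale (colour) for 39 genes (rows) in 5 comparisons by pedigree and age (columns), with a dot where the adjusted p was under 0.05 and grey where CDKN1A was not tested. In the d35 column 28 of 39 differences are under 0, and in the 4 later columns those of all genes but CCND1 and the CDK inhibitors are above 0.

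Other genes of the cell cycle, listed by textbook function, showed the same direction in the control gonads of d37-39. Of 58 further G2/M genes tested, 46 were higher in XX and 0 lower, and of 37 further DNA replication genes 28 were higher and 2 lower. ORC1, of the origin recognition complex, had 9.74 ± 0.791 against 5.01 ± 0.448 FPKM (SD, n = 6 each, 0.84, adjusted p = 2.6e-06). CLSPN, a replication checkpoint adaptor, had 7.92 ± 0.51 against 3.95 ± 0.48 FPKM (0.85, adjusted p = 4e-06). Of 20 further G1/S genes 9 were higher and 1 lower. The lower genes with the lowest p were CDC7, the kinase that fires origins (16.3 ± 2.1 against 29.3 ± 7.64 FPKM, -0.78, adjusted p = 0.0012), and RBL2, a pocket protein of resting cells (10.8 ± 0.65 against 14.3 ± 1.81 FPKM, -0.37, adjusted p = 0.0044). Neither of 2 further CDK inhibitors tested was called.

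Marker genes of other cell types moved with the same comparison. The summed FPKM of 9 Leydig and steroidogenic genes was 564 to 2980 in XX and 5390 to 10200 in XY controls of d37-39, and that of 9 Sertoli genes 802 to 1040 against 1420 to 2630. PTGDS made up most of the Sertoli sum (means of 870 and 1480 FPKM), and 7 of 8 Sertoli genes tested were called lower in XX. Of 11 macrophage and immune genes the sum was 36.5 to 56.7 against 64.1 to 154. Higher in XX were 12 pre-granulosa genes (190 to 286 against 65.1 to 89.7) and 13 genes of mesonephros and kidney (78.3 to 114 against 39.1 to 50), a list led by EMX2, which the early gonad also expresses. Sums of 12 germ cell genes overlapped (51.4 to 71.7 and 59.5 to 84.1), with DND1 the highest (means of 32.2 and 31 FPKM). NANOG was at 0 in all these libraries and STRA8 under 0.1 FPKM in the mean, as was DDX4 in XY alone. Of 7 germ cell genes tested, 2 were called higher in XX and 1 lower, with a median of 0.52 (-1.52 to 1.11). The part of these cell types in the cell cycle result was not tested.

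In controls of d44, 1 litter, XX was again above XY for 36 of 39 members, of which 19 were called. FOXM1, a transcription factor of mitotic genes, had 13.6, 14.3 and 14.1 FPKM in the XX and 8.11, 7.73 and 6.84 in the XY libraries (0.81, SE 0.08, adjusted p = 0.0012). RRM2 had 40.9, 43.1 and 39.5 against 24.1, 25.1 and 26.8 FPKM (0.68, adjusted p = 0.0018), and MKI67 32.6, 39.8 and 35.5 against 17.4, 20.3 and 19.6 (0.88, adjusted p = 0.0022). No XY library reached the XX values of these genes. The 19 members called higher and 1 called lower in XX stand against 12.8% and 12% of all loci, and the median was 0.39 against 0.04 over all loci. The lower member was CDKN1A, the p21 inhibitor, with 0.956, 0.782 and 0.836 FPKM in XX and 2.56, 1.99 and 1.57 in XY libraries (-0.70, SE 0.19, adjusted p = 0.045). Its call was lost without any one of the XX control replicates and without XY control replicate 1 or 2. It was also lost with no filter and with depth as a covariate. PCNA (188 ± 6.98 against 163 ± 14.6 FPKM, SD, n = 3 each, 0.20, SE 0.09) and CDK1 (0.19, SE 0.09) were not called. Leydig and steroidogenic sums were 546 to 765 in XX and 11100 to 11800 in XY, and their part was not tested. Of the further genes, 22 of 58 for G2/M and 11 of 37 for DNA replication were higher and 0 lower, among them MCM10 (15.3 ± 0.665 against 9.9 ± 0.444 FPKM, SD, n = 3 each) and CDC25B (14.5 ± 0.687 against 9.15 ± 0.706). In the G1/S list 4 were higher, and CCND3 (-0.53) and E2F5 (-0.46) were lower. The count fell to 9 members without XX control replicate 2 or without replicate 3, to 4 with depth as a covariate, and rose to 31 with the long-minus-short measure as a covariate.

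XX embryos at risk and their XY littermates also differed in most of these genes at d37-39. RRM2 had 41.8, 48.2 and 52.4 FPKM (lowest, median, highest) in 8 XX gonads at risk and 24.4, 26.9, 26.6, 20.5 and 20.0 in the 5 XY littermates (0.99, SE 0.08, adjusted p = 2.3e-06). MKI67 had 24.9, 26.8 and 30.3 against 16.9, 14.6, 15.4, 14.8 and 15.2 FPKM (0.79, SE 0.07, adjusted p = 2.6e-06), and BUB1B 23.0, 26.2 and 28.2 against 16.6, 16.7, 16.4, 17.3 and 15.4 (0.63, adjusted p = 1.4e-05). The groups were apart for all 3 genes. Of 39 members 27 were higher in XX at risk and 0 lower, against 3.41% of all loci higher and 4.09% lower, and the members' median was 0.58. The XY littermates of this age held many transcripts without a gene name (3052 to 8064 loci at 1 FPKM or more), and the median of all loci tested was -0.28 but that of named loci -0.01. Among named loci 8.73% were higher and 10.6% lower. All 7 spindle genes and all 4 of replication and nucleotides were higher, whereas 1 of 6 G1/S members was. TK1, thymidine kinase, had 28.0, 40.8 and 53.2 FPKM against 16.1, 23.7, 18.6, 18.9 and 19.8 (1.04, SE 0.16, adjusted p = 0.00059). Of the further genes 35 of 58 for G2/M, 12 of 37 for replication and 5 of 20 for G1/S were higher, and 0, 1 and 1 lower. NEK2 (0.75) and TTK (0.86), mitotic kinases, had the lowest p, and CDC7 (-0.65) and RBL2 (-0.42) were again the lower genes.

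The oldest embryos of the DSD pedigree, d41-44, showed the difference once more. The XX embryos were labelled d41 (2), d42 (1), d43 (2) and d44 (1), and the XY littermates d41 (1) and d42 (2). All 6 XX and 1 of 3 XY embryos were homozygous for the insertion, so age and genotype differ with sex in this comparison. CDT1, the origin licensing factor, had 6.30, 7.31 and 8.76 FPKM in 6 XX gonads at risk and 3.29, 4.11 and 3.97 in the 3 XY littermates (0.81, SE 0.10, adjusted p = 0.0003). MCM3 had 45.3, 50 and 54.6 against 29.8, 33.1 and 34.3 FPKM (0.61, adjusted p = 0.00032), and MCM4 54.3, 58.6 and 63.3 against 42.1, 43.7 and 41.7 (0.47, adjusted p = 0.0005). No library of one sex lay in the range of the other for these genes. Of 38 members tested 29 were higher and 0 lower, against 12.8% and 15.5% of all loci, with a median of 0.54 against 0 and all 38 differences above 0. Of the further genes 44 of 58 for G2/M and 23 of 37 for DNA replication were higher, and 0 and 2 lower. TACC3 (28.7 ± 2.77 against 15.5 ± 0.799 FPKM) and CENPA, the centromeric histone (18.3 ± 1.86 against 9.39 ± 0.571 FPKM), had the lowest p (0.00012 adjusted, SD, n = 6 and 3), and ORC2 (-0.43) and RBL2 (-0.53) were lower. In 7 of the 20 G1/S genes XX was higher and in 3 lower. With litter as a fixed factor 13 members were called, all higher. Leydig and steroidogenic sums were 502 to 2440 in XX at risk and 8960 to 10300 in XY littermates of this age, and 750 to 2270 against 8040 to 10800 at d37-39, and the part of those cells was not tested.

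**Figure D3:**
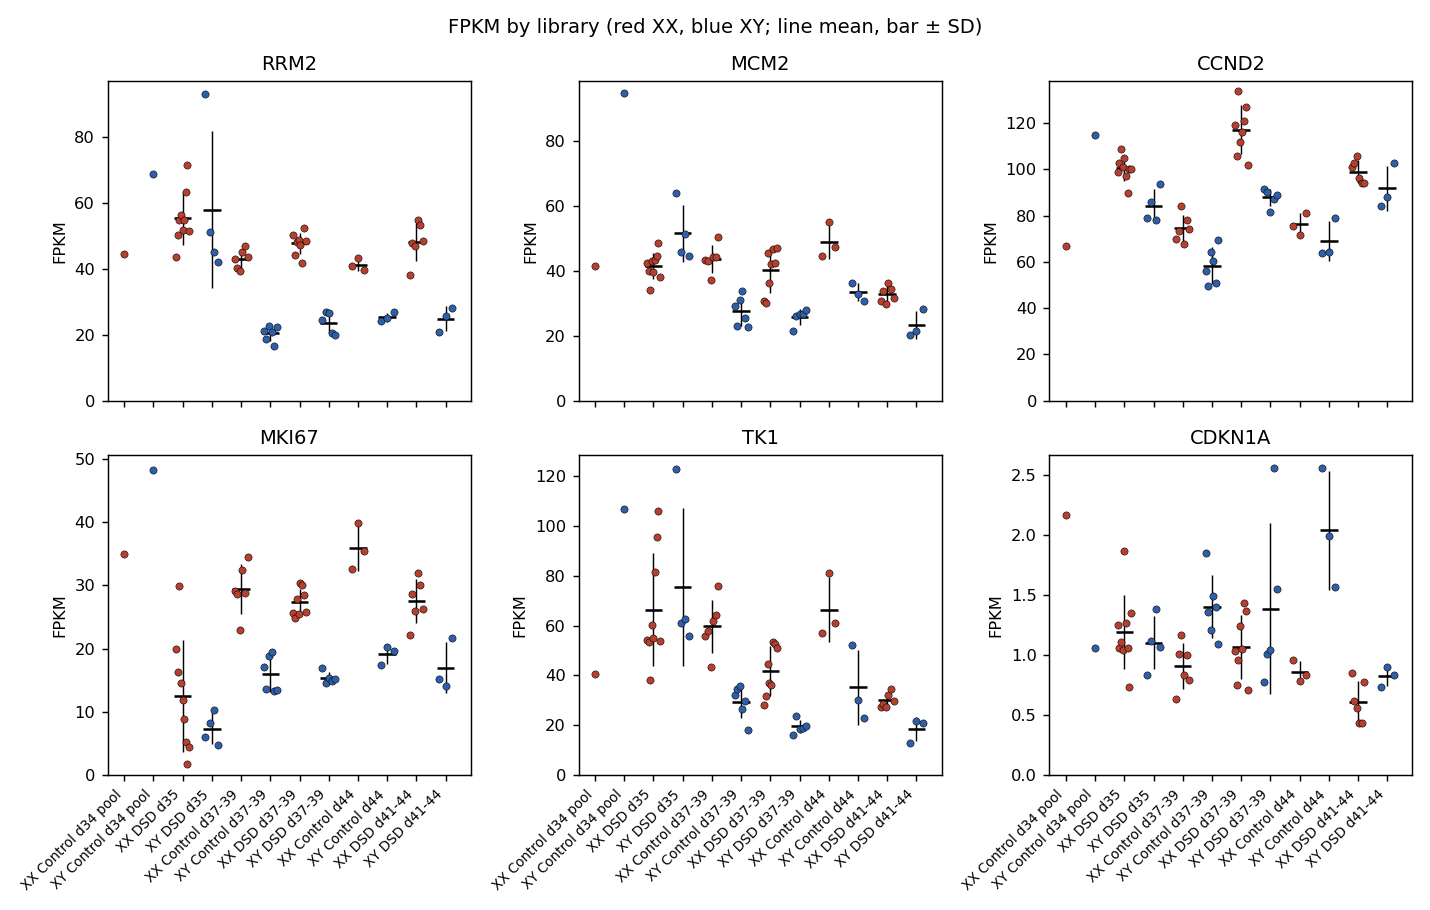
FPKM (y axis, from 0) of RRM2, MCM2, CCND2, MKI67, TK1 and CDKN1A in each library by group (x axis), XX in red and XY in blue, with mean and SD as lines. RRM2 in XY gonads is at 28.1 FPKM or under from d37 on and at 42 or over at d35, whereas CCND2 at d37-39 is higher in the DSD pedigree than in controls of the same sex and MKI67 is low in many d35 libraries.

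At d35 the sexes of the DSD pedigree did not differ in this way. RRM2 had 43.6, 54.6 and 71.4 FPKM in 9 XX gonads at risk and 93.0, 51.2, 45.1 and 42 in 4 XY littermates, and MCM2 34.2, 42.4 and 48.5 against 64.1, 45.9, 51.4 and 44.7. The ranges overlapped for both, and XY replicate 1 was the highest of all d35 libraries for both. Of 39 members 1 was called higher and 3 lower in XX, against 8.3% and 13.1% of all loci, with a median of -0.17. CDC20, an activator of the anaphase-promoting complex, had 14.2, 17.7 and 30.3 FPKM in XX and 38.9, 27.2, 31.5 and 26.8 in XY libraries (-0.68, SE 0.17, adjusted p = 0.011). PLK1 (25.2, 29.5 and 39.5 against 53.1, 42.2, 38.1 and 36.7 FPKM, -0.51, adjusted p = 0.011) and MCM4 (56.1, 59.7 and 83.5 against 96.0, 78.5, 81.1 and 70.6, -0.37, adjusted p = 0.025) were also lower. CCND2, cyclin D2, was the higher member, with 90, 100 and 109 against 78.8, 86.0, 78.1 and 93.9 FPKM (0.25, SE 0.07, adjusted p = 0.025). CDC7 (-0.64) and KIF2C (-0.35) were lower and TFDP2 (0.39) and CDK6 (0.36) higher among the further genes. Testis genes were already apart at this age, with Leydig and steroidogenic sums of 255 to 1290 in XX and 1630 to 7720 in XY, and pre-granulosa sums of 156 to 243 and 67.3 to 127. With litter as a fixed factor 0 members were higher and 7 lower, with a median of -0.33. CDC20 (-0.79), PLK1 (-0.52) and MCM4 (-0.44) were among the 7, whereas CCND2 was not called (0.26, adjusted p = 0.11). Without XX replicate 8 the count of called members was 8, and without any of XY replicates 1, 2 and 3 it was 2.

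In the pooled d34 controls, 1 library each without replicates, the XY pool was above the XX pool in the score (5.61 and 5.11). MCM2 had 41.6 FPKM in the XX and 94.7 in the XY pool, TK1 40.7 and 107, and CDT1 11.5 and 31.8, whereas TOP2A (96.6 and 94.6) and CDK1 (65.0 and 64.3) were near each other. The summed FPKM of 10 erythroid genes was 1160 in the XX and 3230 in the XY pool, and the part of these cells was not tested. These are values of 2 libraries. The relative depth of the XY pool was 0.138, the lowest of the series.

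MKI67 and CENPE, the mitotic kinesin of kinetochores, departed from the other members at d35. In XX gonads at risk MKI67 ran from 1.68 to 29.9 FPKM with a median of 11.8, and in XY littermates it was 5.93, 8.14, 10.3 and 4.77. CENPE ran from 1.46 to 21.9 FPKM in XX and was 3.88, 3.52, 4.02 and 2.78 in XY gonads. Both were lower where long loci were lower against short ones. The XX library with a long-minus-short measure of -0.79 had 1.68 FPKM of MKI67. That with -0.41 had 5.24, and that with 0.18 had 29.9. Median transcripts of these loci are 8576 bases (MKI67, chromosome 28 from 36910660 to 36939437, minus strand) and 8496 bases (CENPE). Over 53 libraries MKI67 and CENPE had r = -0.03 and -0.10 with the mean of the other members on the log2 scale, against 0.94 for MCM3, 0.91 for MCM2 and RRM2 and 0.90 for CDC6, AURKA and BIRC5, the members most like the rest. CDKN1A (-0.31) and CDKN1B (-0.23) were the lowest, and these r are descriptions over libraries that share groups and litters. Gene level and the long-minus-short measure cannot be told apart at d35 for MKI67 and CENPE.

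**Figure D4:**
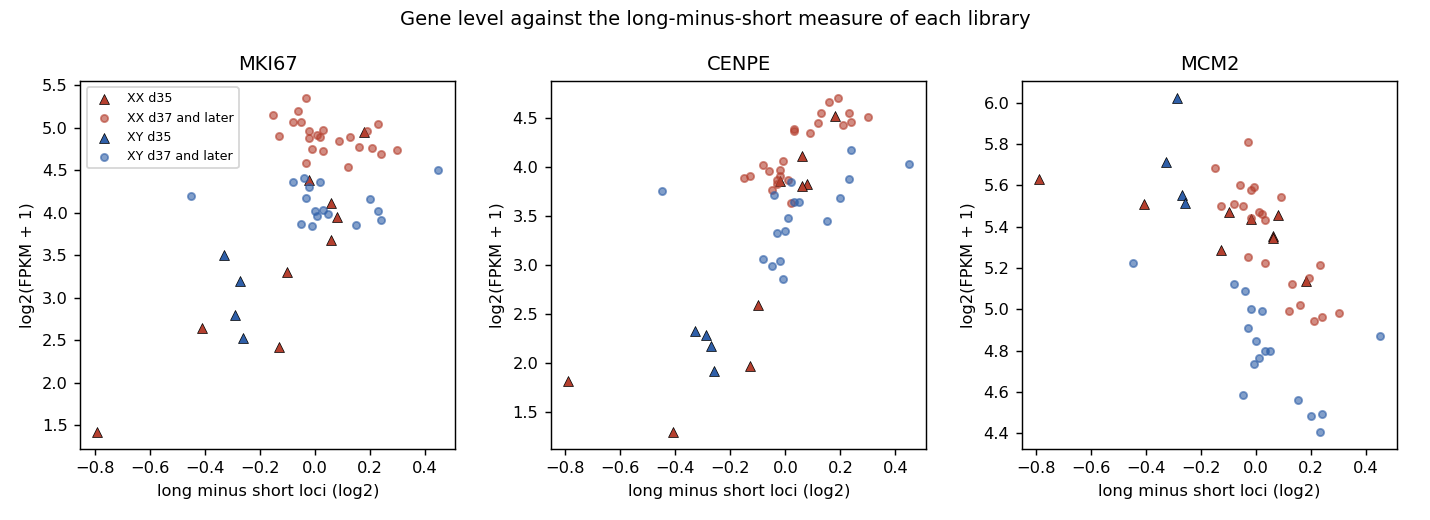
log2(FPKM + 1) of MKI67, CENPE and MCM2 (y axes) against the long-minus-short measure of each library (x axis, log2), with d35 libraries as triangles and later ones as circles, XX in red and XY in blue. The d35 libraries fall steeply with the measure for MKI67, from 29.9 FPKM at 0.18 to 1.68 at -0.79, but not for MCM2.

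Between d35 and d37-39 the cell cycle genes fell in XY littermates. TK1 went from 123, 61.1, 62.6 and 55.6 FPKM at d35 to 16.1, 23.7, 18.6, 18.9 and 19.8 (-1.84, SE 0.22, adjusted p = 0.0016). CDT1 went from 12.6, 11.3, 12.0 and 10.8 FPKM to 4.30, 4.79, 5.28, 4.87 and 6.03 (-1.07, SE 0.11, adjusted p = 0.00089), and CDC20 from 38.9, 27.2, 31.5 and 26.8 to 10.1, 13.2, 14.4, 9.55 and 10.5 (-1.35, adjusted p = 0.0012). The ages did not overlap for these genes. MCM2 went from 64.1, 45.9, 51.4 and 44.7 to 21.4, 26.2, 26.8, 26.8 and 27.8 FPKM (-0.96, adjusted p = 0.0016). In all, 28 of 39 members fell and 2 rose, against 8.01% of all loci lower and 3.45% higher. The median of the members was -0.80, that of all loci 0.63 and that of named loci -0.09, of which 17.2% fell and 7.43% rose. All 8 licensing and MCM genes, all 4 of replication and nucleotides and all 4 of the checkpoint and anaphase fell, whereas 0 of 6 G1/S members were called. The 2 that rose were the long loci CENPE (1.38, adjusted p = 0.00063) and MKI67 (1.03, adjusted p = 0.0071). Of the further genes 33 of 58 for G2/M, 19 of 37 for DNA replication and 2 of 20 for G1/S fell, with RFC4 of the clamp loader (77.7 ± 10.3 to 31.7 ± 4.71 FPKM, SD, n = 4 and 5) and RACGAP1 of the central spindle (49.0 ± 13.3 to 19.8 ± 1.67) at the lowest p, and RBL2 rose (0.64). The summed FPKM of 10 erythroid genes ran from 688 to 2150 at d35 and from 331 to 1090 at d37-39 in XY littermates, with overlap. In XX embryos at risk it ran from 453 to 2770 and from 256 to 1620, and the part of these cells was not tested. The long-minus-short measure was -0.33 to -0.26 at d35 and 0 to 0.20 at d37-39 in XY littermates, without overlap. With it as a covariate 0 members were called and the median was -0.33, so that age and this measure cannot be told apart.

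XX embryos at risk showed no fall of this size over the members between the same ages. RRM2 had 43.6, 54.6 and 71.4 FPKM at d35 and 41.8, 48.2 and 52.4 at d37-39, and MCM2 34.2, 42.4 and 48.5 against 30.2, 42.4 and 47.2. Both ranges overlapped. Of 39 members 1 rose and 0 fell, against 1.46% and 3.41% of all loci, with a median of -0.09, and 12 members had an unadjusted p under 0.05. The member that rose was MKI67 (1.39, SE 0.36, adjusted p = 0.035). Among the further genes limma called CENPN (-0.35, adjusted p = 0.023) and CHAF1B (-0.33, adjusted p = 0.034) lower at d37-39. Whether the change with age differed between XX and XY embryos was tested as an interaction, added after the data had been seen: 6 of 39 members were called, all with a larger fall in XY (0.16% of all loci were higher and 0.093% lower), and 35 of 39 differences were above 0 with a median of 0.70. They were RRM2 (0.99, SE 0.20, adjusted p = 0.03), MCM2 (0.90, SE 0.16, adjusted p = 0.021), PRC1, a cytokinesis bundler of microtubules (0.81, adjusted p = 0.024), CCNA2 (0.78, adjusted p = 0.024), MCM4 (0.70, adjusted p = 0.032) and RRM1 (0.69, adjusted p = 0.03). With the long-minus-short measure as a covariate 20 members were called, and without XY replicate 1 of d35 there were 0, without XY replicate 2 of d35 2, without XY replicate 5 of d37-39 3 and without XX replicate 8 of d35 21. Of the further genes, 9 of 58 for G2/M and 1 of 37 for DNA replication were called, led by RACGAP1 (1.04) and NEK2 (0.96).

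Later changes with age were not called. From d37-39 to d44, limma called 0 of 38 members in XX controls (1.96% of all loci higher, 0.646% lower, 4 members with an unadjusted p under 0.05) and 0 of 39 in XY controls (0.0691% higher and 0.0691% lower, 8 members). All 39 XY differences were above 0, with a median of 0.22. PCNA went from 96.1, 117 and 126 FPKM (lowest, median, highest) to 180, 152 and 158 (0.54, SE 0.12, adjusted p = 0.18). The difference of the 2 changes was called for 0 of 39 (0.202% of all loci higher, 0.133% lower, 8 members at an unadjusted p under 0.05) and had a median of -0.19. In the DSD pedigree limma called 0 members from d37-39 to d41-44 in XX (1.02% of loci higher, 1.71% lower, 17 members at an unadjusted p under 0.05, median -0.01) and 0 in XY embryos (0.0253% higher, 0.00949% lower, 10 members, median -0.04). With 3 to 8 libraries in a group, a p above the threshold does not show that the levels were alike. CDKN2C, an inhibitor of CDK4 and CDK6, rose in XX controls (2.54 ± 0.381 to 4.4 ± 0.378 FPKM, SD, n = 6 and 3, adjusted p = 0.024), and ASPM, a spindle pole gene, rose in XX at risk (0.41, adjusted p = 0.046). In XX at risk the median long-minus-short measure was 0.03 at d37-39 and 0.175 at d41-44, and the median depth 0.564 and 0.306. Their part in the rise of ASPM was not tested.

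XX embryos at risk were compared with XX controls, at a younger and an older age, to ask how these genes differ between them. The study places the earliest seminiferous tubules of XX DSD gonads after the younger age and before most embryos of the older group. The older comparison is therefore not one of gonads before testis tissue can be seen. At d37-39 the members split: 3 of 39 were higher and 4 lower, near the shares of all loci (5.65% and 8.11%), with a median of 0.02. CCND2, a D-type cyclin that granulosa cells need for division, stood out, with 102, 118 and 134 FPKM (lowest, median, highest) in 8 XX gonads at risk and 67.9, 73.8 and 84.1 in 6 XX controls (0.64, SE 0.07, adjusted p = 8.8e-05). The groups did not overlap. CENPE (18.3 ± 3.02 against 13.1 ± 0.97 FPKM, SD, 0.44, adjusted p = 0.011) and CCNE2 (0.31, adjusted p = 0.037) were the other higher members. Lower were E2F1 (25.4 ± 5.45 against 35.1 ± 2.2 FPKM, -0.48, adjusted p = 0.02), UBE2C (-0.59, adjusted p = 0.027), TK1 (-0.52, adjusted p = 0.042) and CDC20 (-0.49, adjusted p = 0.046). MKI67 (-0.10, SE 0.08), TOP2A (0.13, SE 0.07), MCM2 (-0.13, SE 0.11) and PCNA (0.05, SE 0.07) were not called. Among the further genes, CCNF (-0.56) and CENPM (-0.55) had the lowest p among those lower, and POLA1 (0.27) and RPA1 (0.17) among those higher. With litter as a random block 1 member was called, higher. With the long-minus-short measure as a covariate 4 were higher and 0 lower, and CCND2 was called (0.66, adjusted p = 0.00026) but not E2F1 (-0.22), UBE2C (-0.24), TK1 (-0.20), CDC20, CENPE (0.30) or CCNE2 (0.15). Of 7 germ cell genes tested 4 were lower in XX at risk (sums 44.5 to 64.3 against 51.4 to 71.7 FPKM), and their part was not tested.

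At the older age 8 of 38 members were higher and 15 lower in XX embryos at risk of d41-44 than in XX controls of d44, against 19.3% and 29.2% of all loci. The count of higher members was near the share of all loci. The members' median was 0, and after rescaling of the libraries by the median of ratios the split became 14 higher and 12 lower. CDT1 had 6.30, 7.31 and 8.76 FPKM in 6 XX gonads at risk and 14.9, 16.9 and 15.4 in 3 XX controls (-1, SE 0.08, adjusted p = 1.9e-05). E2F1 had 17.1, 20.5 and 21.8 against 34.5, 39.5 and 37.2 FPKM (-0.87, adjusted p = 3.6e-05), and FOXM1 6.74, 8.02 and 8.78 against 13.6, 14.3 and 14.1 (-0.75, adjusted p = 3.7e-05). These groups were apart. CENPE, at 20.6, 22.5 and 25.1 against 15.2, 13.6 and 14.6 FPKM, was higher (0.61, SE 0.07, adjusted p = 9.8e-05), as were CDK1 (87.5 ± 7.7 against 58.1 ± 3.59 FPKM, SD, 0.58, adjusted p = 0.00028) and CCND2 (99.1 ± 5.01 against 76.3 ± 4.77 FPKM, 0.37, adjusted p = 0.00044). TOP2A (0.39) and KIF11 (0.42) were also higher, and TK1 (29.9 ± 2.86 against 66.3 ± 13 FPKM, -1.11), AURKB (-0.66), MCM2 (-0.56), PLK1 (-0.56) and MKI67 (-0.38) were lower. CDKN1B, the p27 inhibitor, was higher (19.0 ± 2.14 against 13.5 ± 0.545 FPKM, 0.46, adjusted p = 0.0024). Pre-granulosa sums were 174 to 207 in XX at risk and 326 to 335 in XX controls, with 7 of 11 genes lower and 1 higher, and of 11 endothelial genes 7 were lower and 1 higher (sums 184 to 210 against 200 to 232 FPKM). The part of these cell types was not tested.

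The direction of these differences from XX controls went in part with transcript length at both ages. Spearman's rho between the difference and the median transcript length was 0.44 over 39 members and 0.21 over 13682 named loci at d37-39, and 0.43 over 38 members and 0.15 over 13609 named loci at the older age, against -0.04 over the 39 members in the comparison of XX with XY controls at d37-39. The members share these libraries, so rho is a description. The short locus of TK1 has a median transcript of 1470 bases and CDT1 of 1891, whereas CENPE has 8496 and CDK1 7908. The XX DSD libraries of d41-44 were also shallower than the controls. With the long-minus-short measure as a covariate 2 members were called at the older age, and with depth as a covariate 0, so that pedigree cannot be told apart from these properties of the libraries. Further genes split likewise, with 25 of 58 for G2/M higher and 18 lower, and 13 of 37 for DNA replication in each direction. ASPM (0.70) and ORC2 (0.53) were the higher, LIG1 (-0.87) and INCENP (-0.93) the lower genes of lowest p.

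**Figure D5:**
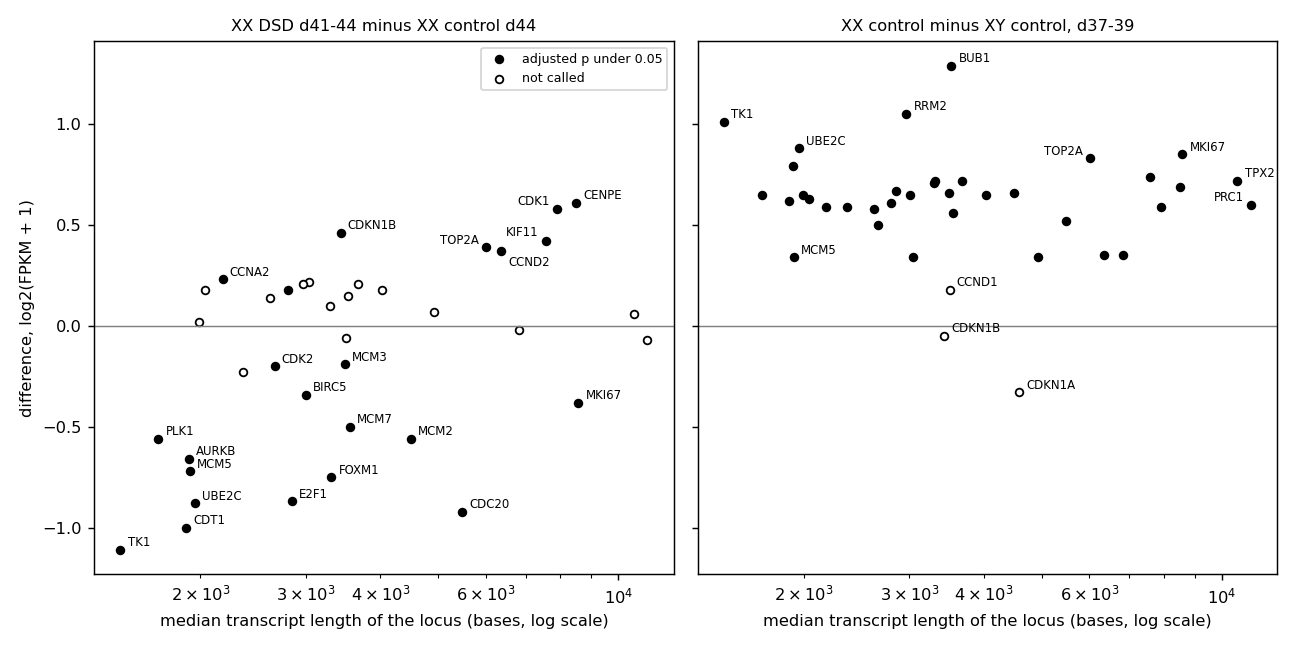
Difference on the log2(FPKM + 1) scale (y axis) against the median transcript length of each locus (x axis, bases, log scale) for XX DSD d41-44 minus XX controls of d44 (left) and XX minus XY controls of d37-39 (right), filled where the adjusted p was under 0.05. On the left several short loci, such as TK1 at -1.11, are lower and several long loci, such as CENPE at 0.61, higher. CDC20 at -0.92 and MKI67 at -0.38 lie apart from this order. So do the longest loci, PRC1 (means of 26.3 against 27.5 FPKM) and TPX2 (42.1 against 40.2), and the short PCNA (213 against 188). On the right no such order is seen.

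XY littermates were compared with XY controls as embryos of the same pedigree that form testes. At d37-39, 1 of 39 members was higher and 0 lower, against 0.402% and 0.885% of all loci. It was CCND2 again, with 91.6, 90.3, 81.7, 87.1 and 88.8 FPKM in 5 XY littermates and 49.5, 58.1 and 69.7 (lowest, median, highest) in 6 XY controls (0.59, SE 0.09, adjusted p = 0.025). The call was lost without any of XY littermate replicates 2 to 5 (0.58 to 0.62, adjusted p from 0.057 to 0.07). At d41-44, 0 were higher and 5 lower, against 2.63% and 8.58% of loci. CDT1 had 3.29, 4.11 and 3.97 FPKM in XY littermates and 13.9, 10.2 and 8.35 in XY controls (-1.28, SE 0.19, adjusted p = 0.029). CDC20 had 7.58, 8.09 and 8.29 FPKM against 25.6, 18.3 and 15.7 (-1.19, adjusted p = 0.029), and E2F1 14.2, 16.1 and 12.9 against 35.2, 30.4 and 23.1 (-0.97, adjusted p = 0.031). The groups did not overlap for these 3, and AURKB (-1.11) and UBE2C (-1.17) were the other members called. Here too the long-minus-short measure differed, 0.23 to 0.45 in XY littermates against -0.45 to 0.02 in XY controls, and with it as a covariate 0 members were called. None was called without XY littermate replicate 1 or 2 or without XY control replicate 1 or 2, and 2 were without XY littermate replicate 3. Among the further genes PKMYT1 (-1.08) and CDCA3 (-1.08) were lower and ORC5 (0.45) higher.

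Whether pedigree changed the XX and XY gonads by different amounts was tested as an interaction. At d37-39 limma called 0 of 39 members (0% of loci higher and 0.00514% lower, 1 member at an unadjusted p under 0.05), with a median of -0.06. At d41-44 it called 0 of 39 (0.0397% higher and 0.0749% lower, 9 members), with a median of 0.14. The differences of the XX and XY changes ran from -0.53 to 0.16 at d37-39 and from -0.26 to 0.51 at d41-44 over the members.

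The D-type cyclins and the CDK inhibitors can be followed over the 10 tested groups, the d34 pools apart. CCND1, cyclin D1, was read from 1 of its 2 loci. It was called in none of the comparisons of XX with XY gonads, where its difference ran from -0.19 in controls of d44 to 0.25 at d35. Its means in the tested groups lay between 14.4 and 19.7 FPKM, against 18.4 in the XX and 53.2 in the XY pool of d34. CCND2 had its lowest mean in XY controls of d37-39 (58.4 FPKM) and its highest in XX at risk of that age (117 FPKM). CDKN1A was low throughout, with means of 0.61 to 2.04 FPKM in these groups and 2.17 (XX) and 1.06 (XY) in the d34 pools. It was called only in controls of d44, and most fits that left out 1 replicate lost that call. CDKN1B had means of 11.9 to 19.0 FPKM in these groups and 9.92 (XX) and 6.5 (XY) in the d34 pools. It was not called between XX and XY gonads in any of 5 comparisons. It was called in XX DSD of d41-44 against XX controls alone, and that value turned to -0.03 with the long-minus-short measure as a covariate.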

How the data were processed

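RNA of embryonic gonads was sequenced from unstranded polyA libraries as single-end reads. Per the submitters' processing notes, the authors trimmed reads with cutadapt 1.5, whereas the study's methods name a later version. Per the notes and methods, they aligned the reads to canFam3 with TopHat2 2.0.13 and assembled transcripts with reference guidance. The FPKM values were made with Cuffnorm of Cufflinks 2.2.1. These FPKM are used as deposited, with no column of the authors' own comparisons. The study's methods give read numbers only as averages over all libraries, and no depth by library was at hand. A relative depth was taken from the commonest ratio of low FPKM values between libraries, the same within 0.05 (log2) for 3 of 5 reference libraries in 55 of 55.

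Groups came from the labels. Groups were compared pairwise with limma 3.58.1 (R 4.3.3, lmFit, eBayes with trend) on log2(FPKM + 1), keeping loci whose mean reached 1 FPKM in one or both groups. P-values are two-sided, adjusted by Benjamini-Hochberg over all loci tested, and called under 0.05. A log2 difference on this scale understates the change of low genes. Interactions were fitted over 4 groups. The P-values measure the spread between embryos, of which littermates are not independent. The fits were tested on simulated data with 200 changed genes. The simulated libraries were independent, without effects of litter, depth or transcript length, so that test does not cover these. The long-minus-short measure used 2049 long and 3150 short named loci with a mean of at least 5 FPKM.

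Members and lists were chosen with earlier results of these data known. Genes with values are MKI67, TOP2A, CDK1, MCM2, PCNA, CCND1, CCND2, CDKN1A, CDKN1B and, in each comparison, the called members (up to 3 a direction) and further genes (up to 2) of lowest adjusted p. Other members named were chosen after their values were seen, as were the tests over named loci alone, those with the long-minus-short measure and the interaction of sex with age in the DSD pedigree. Embryos labelled d41 (2 of 6 XX and 1 of 3 XY of the oldest DSD groups) were kept with d42-44, although the study's list of embryos gives an earlier day, under d39, for the same animals and its methods place them after d39. Their age is therefore uncertain.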

Additional observations from a re-analysis of the deposited data

Results flagged for a closer look

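3 libraries lay far from the rest of their group for 1 member each, by Dixon's test at the 95% level in groups of 4 to 10 (70 sets of values tested, of which chance flags about 1 in 20). PCNA was 323 FPKM in XX DSD replicate 8 of d35, the library in which 1 locus held 71.4% of the summed FPKM and the long-minus-short measure was -0.79. CCND1 was 12.8 FPKM in XX DSD replicate 3 of d35. MCM2 was 21.4 FPKM in XY DSD replicate 1 of d37-39. The part of depth or of the long-minus-short measure in these values was not tested.

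The change from d35 to d37-39 differed between XX embryos at risk and XY littermates for 6 members in limma's interaction, a test added after the data had been seen. The change was higher in XX than in XY by 0.99 for RRM2, 0.90 for MCM2, 0.81 for PRC1, 0.78 for CCNA2, 0.70 for MCM4 and 0.69 for RRM1 (log2 scale, adjusted p from 0.021 to 0.032). The d35 XY group is 4 embryos of 2 litters, and without its replicate 1 the count was 0.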

How the results depend on the processing

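The count of members called in XX against XY controls of d37-39 (36) stayed between 29 and 37 over 10 alternatives and was 35 without XY control replicate 2, a left-out library chosen after the data were seen, and that in the DSD pedigree at d37-39 (27) between 20 and 32. Relative depth as a covariate gave 4 calls in controls of d44 (20 without it), 0 in XX DSD against XX controls at d41-44 (23), 0 in XY DSD against XY controls at d41-44 (5), 2 in XX DSD from d35 to d37-39 (1) and 10 in the interaction of sex with age in the DSD pedigree (6). The long-minus-short measure, added later, gave 31, 2, 0, 0 and 20 in these 5, and 4 in XX DSD against XX controls at d37-39 (7), 7 between the sexes at d35 (4) and 0 in XY DSD from d35 to d37-39 (30). It turned CDKN1B in XX DSD against XX controls at d41-44 from 0.46 to -0.03 (adjusted p = 0.95). Without the trend of variance there were 4 calls in XX DSD against XX controls and 0 in XY DSD against XY controls (1) at d37-39, 0 in XY DSD against XY controls at d41-44, 0 in XX DSD from d35 to d37-39 and 0 in the interaction. Litter as a random block gave 1, 0, 16, 0 and 14 in the same 5. Litter as a fixed factor gave 7 between the sexes at d35 and 13 at d41-44 (29). Tests over loci with a gene name alone, added later, gave 3 and 11 in XY DSD against XY controls at d37-39 and d41-44, 4 in XX DSD from d35 to d37-39, 4 from d37-39 to d41-44 (0) and 18 in the interaction. In XY DSD against XY controls at d37-39 a pseudocount of 0.1 gave 2, rescaling by the median of ratios 2 and d39 alone 0, and at d41-44 no filter gave 0 and leaving out d41 embryos 0. Rescaling gave 2 in XX DSD from d35 to d37-39. Why these counts moved was not tested.

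Leaving out 1 replicate at a time, the counts ran from 9 to 28 in controls of d44, 0 to 1 in XY DSD against XY controls at d37-39 (0 without any of XY DSD replicates 2 to 5) and 0 to 5 at d41-44, 2 to 8 between the sexes at d35, and 0 to 21 in the interaction. Of 934 values of named members under all alternatives 805 kept direction and call, 128 lost the call and 1 changed sign. The annotated gene table was not used, since no file here pairs its identifiers with symbols, and litter could not be fitted in controls of d44 (1 litter). No paired analysis was possible by replicate number because the numbers follow accession order and tie no embryos together. Litters do tie them, and the fits with litter are those given here. Depth limits low members such as CDKN1A.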
